A study of Mus musculus with 38 samples.

Results

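Regions of H3K27me3 that were lost in IκBα-KO mouse embryonic stem cells were described. The regions called in 6 H3K27me3 libraries were merged wherever they overlapped by at least 1 bp, and a merged region was taken as lost when it was called in 3 of 3 IκBα-WT (WT) lists and in 0 of 3 IκBα-KO (KO) lists. These H3K27me3 calls chose the regions, so the difference in H3K27me3 between the genotypes is a description of the choice and was not tested. On chromosomes 1 to 19, and outside 3 segments of chromosomes 2, 8 and 12, 572 of 53730 merged regions met the rule, and all chromosomes together held 58154 merged regions. On the sequence left out, 167 regions met the rule in the segment of distal chromosome 12, 18 in that of chromosome 8, 8 in that of chromosome 2 and 3 on the sex chromosomes. In the chromosome 12 segment the KO input of the H3K27me3 libraries held fewer reads per kb than the WT input, with a median log2 ratio of -0.998 over 67 H3K27me3 regions called in all 6 lists.

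The data were ChIP-seq libraries, in which DNA bound to an immunoprecipitated histone mark is sequenced, for H3K4me3, H3K27me3, H3K9me3, H3K27ac and H3K4me1. The cells were ES-E14TG2a, a mouse embryonic stem cell line, of the genotype IkappBalpha+/+ (wildtype, WT) or IkappBalpha-/- (knock-out, KO), kept in serum with leukaemia inhibitory factor and taken at 0 h. Each mark had 3 WT and 3 KO libraries. The 3 replicates of a genotype were separate clones of 1 parental line, made with guides against Nfkbia, the gene of IκBα, or with guides that have no target, so clone and genotype could differ together. For each mark 1 input per genotype served all 3 replicates, so the 3 WT calls of a lost region shared their input reads. The H3K27ac and H3K4me1 libraries shared their inputs, and the labels give the same antibody catalogue number for both marks, whereas the study's methods name a separate antibody for each.

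H3K27me3 is laid down by the Polycomb repressive complex PRC2 and is bound by CBX proteins of the complex PRC1. In embryonic stem cells it covers CpG-rich promoters of developmental genes, where H3K4me3 is often found with it, and spreads at low levels over intergenic sequence. H3K27ac marks active promoters and enhancers, and since it modifies the same lysine, a lysine cannot carry both it and H3K27me3. H3K4me1 marks enhancers, H3K4me3 active promoters, and H3K9me3 heterochromatin.

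The sequences of 8 windows of 200 bases are shown to let CpG-rich and CpG-poor windows be compared, in GRCm38 from RefSeq, on the plus strand, with every CpG in capitals. They lie at the centre of the lost region with the highest enrichment (Dlgap2), of a lost region upstream of a Polycomb gene (Cbx6), of H3K4me3 peaks that the KO libraries alone held (Bmp4, Pfkfb3, Lipe) and of a H3K27ac region that the KO libraries alone held (Ufm1). The Bmp4 upstream window holds the 200 bases before the 5′ end, and the Hoxc4 window is the centre of the widest region called in all 6 lists. The Dlgap2, Cbx6 and Hoxc4 windows were chosen by rank or list, and the others after their marks had been seen. The centres of the widest lost region and of the lost region at Gnas overlapped untranslated exon sequence and are not shown.
Dlgap2 intron, chr8:14342201-14342400: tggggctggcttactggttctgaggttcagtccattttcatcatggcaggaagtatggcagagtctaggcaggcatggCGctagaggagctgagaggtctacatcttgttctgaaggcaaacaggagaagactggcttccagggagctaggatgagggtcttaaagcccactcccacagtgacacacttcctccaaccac
Cbx6 promoter, chr15:79838801-79839000: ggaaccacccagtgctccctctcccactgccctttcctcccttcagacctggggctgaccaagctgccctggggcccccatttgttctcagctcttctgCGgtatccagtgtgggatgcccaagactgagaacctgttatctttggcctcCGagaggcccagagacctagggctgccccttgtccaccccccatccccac
Bmp4 intron, chr14:46390058-46390257: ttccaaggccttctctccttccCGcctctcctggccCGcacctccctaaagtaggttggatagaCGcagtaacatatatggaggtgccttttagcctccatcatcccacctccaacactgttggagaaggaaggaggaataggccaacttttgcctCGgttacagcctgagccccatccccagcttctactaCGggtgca
Bmp4 upstream, chr14:46390670-46390869: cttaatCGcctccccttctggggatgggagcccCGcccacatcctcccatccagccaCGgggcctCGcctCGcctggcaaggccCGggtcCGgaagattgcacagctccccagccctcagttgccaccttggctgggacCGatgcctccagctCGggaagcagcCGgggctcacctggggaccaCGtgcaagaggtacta
Pfkfb3 intron, chr2:11535618-11535817: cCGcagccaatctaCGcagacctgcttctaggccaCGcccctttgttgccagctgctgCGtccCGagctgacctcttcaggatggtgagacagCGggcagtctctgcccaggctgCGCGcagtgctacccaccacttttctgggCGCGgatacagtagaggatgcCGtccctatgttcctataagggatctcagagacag
Lipe intron, chr7:25396665-25396864: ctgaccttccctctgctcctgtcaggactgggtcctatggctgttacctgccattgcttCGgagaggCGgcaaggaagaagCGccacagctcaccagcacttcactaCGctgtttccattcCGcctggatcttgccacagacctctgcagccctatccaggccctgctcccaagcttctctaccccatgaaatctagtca
Ufm1 upstream, chr3:53870601-53870800: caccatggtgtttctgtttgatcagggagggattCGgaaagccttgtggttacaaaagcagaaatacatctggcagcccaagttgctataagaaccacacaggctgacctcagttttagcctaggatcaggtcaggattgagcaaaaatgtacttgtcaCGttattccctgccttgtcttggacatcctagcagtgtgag
Hoxc4 intron, chr15:103024801-103025000: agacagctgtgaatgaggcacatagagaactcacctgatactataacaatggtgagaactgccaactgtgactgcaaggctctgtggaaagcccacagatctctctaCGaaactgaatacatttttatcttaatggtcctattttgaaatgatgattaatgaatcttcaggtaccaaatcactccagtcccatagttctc
The Bmp4 upstream and Pfkfb3 windows held 11 CpG each, the Bmp4 intron and Lipe windows 5 each, the Cbx6 and Ufm1 windows 2 each, and the Dlgap2 and Hoxc4 windows 1 each. Over the 6 KO-only H3K4me3 peaks at lost regions, windows of the same size held from 1 CpG (Glis2) to 15 (Tle3), so CpG content varied widely among them.

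Lost regions were shorter and more weakly enriched than regions called in all 6 lists. Their width ran from 1200 to 16600 bp with a median of 4800 bp (quartiles 3600 and 6200 bp), and they covered 2.95 Mb in all. Regions called in all 6 lists (n = 17634) had a median of 10800 bp, and regions of the opposite kind, gained in 3 of 3 KO and 0 of 3 WT lists (n = 809), one of 5200 bp. All other merged regions also had a median of 5200 bp (quartiles 3400 and 8800 bp), so against these the lost regions differed little in median width. ChIP reads over input reads, as counted in the calls, had medians of 1.76, 1.59 and 1.61 over the lost regions in WT replicates 1 to 3. Over the regions called in all 6 lists the same medians were 2.07, 1.90 and 1.91, so the lost regions were the weaker ones in each WT library. The ratio was under 2 in all 3 WT libraries for 358 lost regions (62.6%) and at least 3 in all of them for 6. Input reads stood at a like level, with a median of 17.0 per kb at the lost regions and 17.1 per kb at the regions called in all 6 lists.

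**Figure D1:**
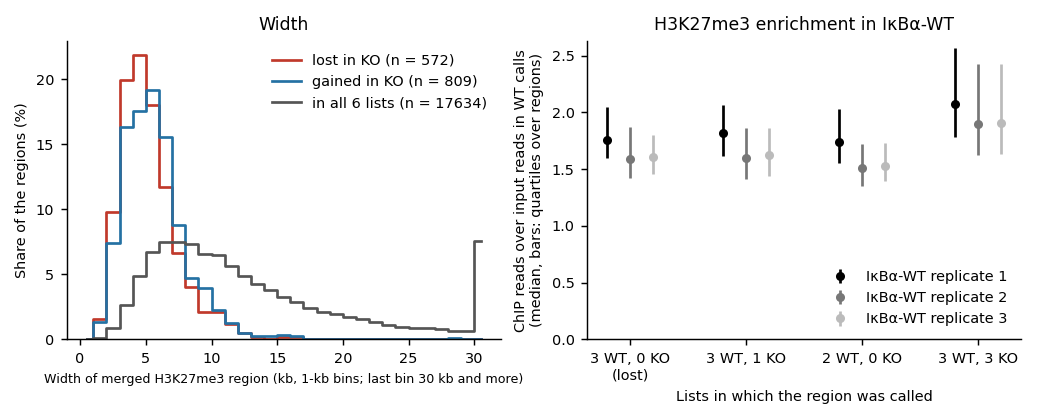
Left, share of merged H3K27me3 regions by width in bins of 1 kb for lost regions, gained regions and regions called in all 6 lists. Right, ChIP reads over input reads in the WT calls, with a point for the median and bars for the quartiles over regions in each WT library; the lost regions have medians of 1.76, 1.59 and 1.61, close to those of regions with 1 KO call and below those of regions called in all 6 lists.

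Regions just outside it, with 3 WT calls and 1 KO call, numbered 831 and had a median width of 5400 bp and median ratios of 1.82, 1.60 and 1.63. Regions with 2 WT calls and no KO call numbered 1427, with a median width of 4000 bp and median ratios of 1.74, 1.51 and 1.53 where called. Among the lost regions, 126 (22.0%) rested on at least 1 WT library whose best false discovery rate (FDR) was 0.01 or above, close to the limit of 0.05 of the lists, whereas in 307 (53.7%) all 3 WT libraries reached an FDR under 0.001. In the median lost region 45.0% of the bases were called in all 3 WT libraries.

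KO calls of H3K27me3 lay near many of the lost regions. The median distance to the nearest KO call was 7100 bp, 75 lost regions had one within 1000 bp, 236 had none within 10 kb and 60 had none within 50 kb. The most isolated was the region at Bmp4, with 439000 bp to the nearest KO call. Lost regions were spread over all 19 autosomes, from 13 on chromosome 19 to 46 on chromosome 1, or 7.02 (chromosome 13) to 16.4 (chromosome 8, where most of the chromosome was left out) per 1000 merged regions. Of the 572, 136 had another lost region within 100 kb, in groups of at most 4. The groups of 4 were in Btbd11 on chromosome 10, upstream of Tle3 on chromosome 9, near Spaca7 on chromosome 8, and between Btbd7 and Unc79 on chromosome 12.

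The group of 4 on chromosome 12 and the lost region at Itgb8 lay near sequence that was left out. They were 65600 to 112000 bp before and 236200 bp after the chromosome 12 segment that was left out. In the 1 H3K27me3 region called in all 6 lists within 100 kb of the group of 4, the log2 ratio of KO over WT input reads per kb was -0.81, and in 2 H3K4me1 regions there it was -0.98. Beyond the segment, where Itgb8 lies, it was -1.05 over 7 H3K9me3 regions. The lower KO input thus reached past the segment's limits, and these 5 regions cannot be told apart from that lower input. The 1-Mb windows that held 571 of the lost regions had a median log2 input ratio of -0.00 with the inputs of the H3K4me1 libraries, and 5 (0.876%) of the regions lay in windows beyond 0.2 in either direction, against 4.90% of all 2184 windows. With the inputs of the H3K27me3 libraries, which entered the calls that chose the regions, 9 of 564 regions (1.60%) lay beyond 0.2, against 7.25% of 1918 windows, and the lowest value was -0.91. Windows of 1 Mb cannot show a local loss of input. The window of the group of 4 on chromosome 12 had -0.057 with the H3K4me1 inputs and 0.001 with the H3K27me3 inputs. The region at Itgb8 had no window value. Shares of regions and of windows are also unlike units, so these shares do not clear the other regions.

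By position, 120 lost regions (20.98%) overlapped a promoter of a protein-coding gene, taken from 5000 bp upstream to 100 bp downstream of its 5′ end. A further 91 (15.9%) overlapped a coding exon, 19 (3.32%) other exon sequence, 86 (15.0%) introns alone, and 256 (44.8%) were intergenic. Promoters held 16.7% of all other merged regions, 35.2% of those called in all 6 lists and 9.27% of the gained regions, so the lost regions stood between those called in all 6 lists and the gained ones. The median distance to the nearest 5′ end was 26042 bp, against 40618 bp for all other merged regions and 48391 bp for gained ones. Their CpG content ranked the same way, with a median of 1.19 CpG per 100 bp (all other regions 1.06, regions in all 6 lists 1.26, gained regions 1.00) and a median GC content of 46.5% (45.5%, 46.9% and 45.3%). These are descriptions over regions, which are not replicates.

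**Figure D2:**
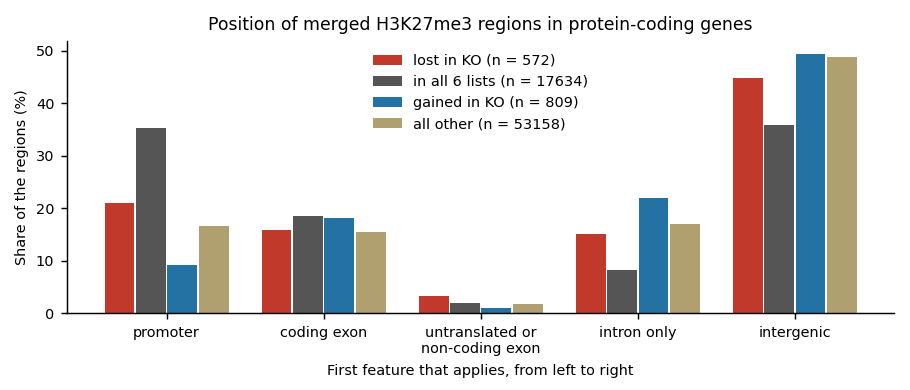
Share of merged H3K27me3 regions in each class by the first feature that applies, from promoter to intergenic, in protein-coding genes. Promoters hold 20.98% of the lost regions, 35.2% of the regions called in all 6 lists and 9.27% of the gained regions.

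Of 19844 protein-coding genes on the sequence used, 351 (1.77%) had a lost region in their body or promoter, whereas 8714 (43.9%) had a region called in all 6 lists. None of the 39 Hox genes, 20 naive pluripotency genes, 15 formative and primed epiblast genes, 22 mesendoderm genes, 24 neural genes, 25 Wnt genes, 23 NF-κB genes or 14 germline genes listed had a lost region, and at the share over all genes lists of this size would be expected to hold under 1 each. All 39 Hox genes and all 24 neural genes had a region called in all 6 lists, as did 21 of 22 mesendoderm genes and 24 of 25 Wnt genes. A lost region lay at 1 of 12 trophectoderm genes (Gata3, a zinc-finger regulator), 1 of 24 Polycomb genes (Cbx6, a chromobox protein of PRC1) and 2 of 24 imprinted genes (Gnas, which encodes a stimulatory G protein subunit, and Zdbf2). Among Fox, Sox, Tbx, Pax, Gata and Lhx factors, 2 of 90 had one (Gata3 and Sox6), and 80 of 90 had a region called in all 6 lists. Among 86 cadherins and protocadherins 22 had one, but 21 of these are protocadherin γ genes that share the exons under 2 lost regions, so the count stands for Pcdh7 and 1 locus. Channel subunits had 4 of 125 (Cacna1d, Cacna1e, Cacng6, Cacng7), glutamate and GABA receptor subunits 2 of 40 (Grik3, Grik4), and olfactory receptors 0 of 1123.

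The widest lost regions lay inside genes. The widest, of 16600 bp, was in Zdbf2 (chr1:63301801-63318400), a paternally expressed imprinted gene, over coding and untranslated exon sequence. Its ChIP reads over input were 1.68, 1.53 and 1.72 in the 3 WT libraries. The next were 15200 bp in an intron of Nectin1 (chr9:43757401-43772600), a cell adhesion gene, and 13800 bp in Btbd11 (chr10:85637601-85651400), beside the other lost regions of that gene. Tns1, which encodes the focal adhesion protein tensin, held 2 lost regions, of 12400 and 12200 bp (chr1:73987601-74000000 and chr1:73919201-73931400). A lost region of 12400 bp was in the tyrosine kinase gene Src (chr2:157450401-157462800), and 1 of 11600 bp in Nxn (chr11:76291801-76303400). Among these 8, that at Tcf15 (chr2:152134001-152145600, 11600 bp), a basic helix-loop-helix factor gene, overlapped a promoter, and a KO call lay 600 bp from it. In these 8 regions the ratios ran from 1.20 to 1.78, and none of the 3 libraries reached 2 in any of them.

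The most enriched lost regions were regions of low WT input. The ratio over the 3 WT libraries summed was highest in an intron of Dlgap2 (chr8:14341201-14343400, 2200 bp), a postsynaptic scaffold gene, with 5.90, 5.36 and 3.69 in WT replicates 1 to 3. In that region the WT input held 7.14 reads per kb and the ChIP libraries 34.5 per kb, against medians over the lost regions of 17.0 input reads and of 26.9 to 30.6 ChIP reads per kb. The region in Tmem260 (chr14:48476601-48487200, 10600 bp) had ratios of 4.21, 4.00 and 3.88 with 6.83 input reads and 27.3 ChIP reads per kb. In Tmem260 the ChIP read density was thus near the median of the lost regions, and it was the input that stood apart. The region at Bmp4 had 5.17, 3.89 and 4.68 with 7.79 input reads and 35.1 ChIP reads per kb. These 3 were the only lost regions with under 10 input reads per kb (0.52%, against 0.39% of regions in all 6 lists). The KO input of the H3K27me3 libraries is not listed there. In calls of other marks at Dlgap2 the input held 35.9 reads per kb in WT and 32.9 in KO for H3K27ac, and 23.9 and 28.2 for H3K9me3, and at Tmem260 11.7 and 15.3 for H3K4me1, with no common direction.

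The other highly enriched lost regions had more input than those at Dlgap2, Tmem260 and Bmp4, but less than most lost regions. An intergenic region on chromosome 6 (chr6:37687001-37688200, 1200 bp) had ratios of 12.3, 3.29 and 4.29, and the first of these stood far from the other libraries. The promoter of Slfn8 (chr11:83020401-83021800) had 3.79, 4.22 and 3.57. An intergenic region near Pabpc6 (chr17:9719801-9722600) had 3.29, 3.57 and 3.10, a coding exon of the kinase gene Lrrk1 (chr7:66281201-66282600) had 3.69, 2.67 and 3.91, and an intergenic region 201369 bp from the 5′ end of the ERK phosphatase gene Dusp6 (chr10:99464601-99469000) had 3.43, 3.11 and 2.83. In the order given, the WT input of these regions held 11.1, 10.3, 13.8, 13.1 and 12.9 reads per kb. The lower quartile over all lost regions was 15.4.

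In WT cells the lost regions lay mostly in sequence that also carried H3K4me1 and H3K27ac. H3K4me1 was called at 78.0% ± 0.76 (SD, n = 3) and H3K27ac at 64.4% ± 0.90 of the lost regions in the WT libraries. At all other merged H3K27me3 regions these shares were 46.6% ± 0.020 and 30.5% ± 0.23, and at the gained regions 28.1% ± 0.63 and 17.6% ± 0.38. By this overlap of at least 1 bp, regions called in all 6 H3K27me3 lists, which were wider, were closer to the lost ones. They had H3K4me1 at 75.5% ± 0.13 and H3K27ac at 50.1% ± 0.35. Counted in bases, H3K27ac covered 48.5% of the lost regions in WT, 21.8% of those in all 6 lists and 18.2% of all other regions. For H3K4me1 these base shares were 59.9%, 39.5% and 31.6%, so by bases the regions in all 6 lists were nearer to all other regions. Both marks were called in all 6 libraries at 315 lost regions (55.1%), against 20.5% of all other regions, 36.5% of regions called in all 6 H3K27me3 lists and 11.0% of gained regions. At 77 lost regions (13.5%) none of the 4 marks was called in any library. This was close to the 13.8% of the wider regions called in all 6 H3K27me3 lists and against 38.6% of all other regions. In these cell populations, fewer cells that carry a mark and less of it in each cell cannot be told apart.

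H3K27ac was called at a higher share of the lost regions in each KO library. It was called at 65.4%, 63.6% and 64.2% of them in WT replicates 1 to 3 and at 68.7%, 69.1% and 68.2% in KO replicates 1 to 3, so all 3 KO libraries were above all 3 WT libraries. The difference of the means was 4.25 percentage points, with p = 0.1 in a two-sided exact permutation test, the smallest p that 3 against 3 libraries allow (adjusted p = 0.20 over 8 comparisons). At all other merged regions the share was 30.5% ± 0.23 in WT and 30.1% ± 0.37 in KO (SD, n = 3). The difference at lost regions exceeded that at all other regions by 4.71 percentage points, again with no overlap of the groups (exact permutation p = 0.1, adjusted p = 0.20). Counted in bases, H3K27ac covered 49.2%, 47.5% and 48.7% of the lost sequence in WT and 55.8%, 57.3% and 57.0% in KO. At all other regions the base share was 18.2% ± 0.42 in WT and 19.6% ± 0.48 in KO. By position, H3K27ac was called at 64.8%, 65.3% and 61.7% of the 196 lost regions in gene bodies in WT and at 70.9%, 71.9% and 68.4% in KO. At the 256 intergenic ones it was called at 58.6%, 56.2% and 59.0% in WT and 61.7% in each KO library. The groups did not overlap in either class (exact permutation p = 0.1 each), while at the 120 promoters they did, with 78.9% ± 2.10 in WT and 80.6% ± 0.96 in KO. These tests by position were not adjusted. Other H3K27me3 regions were not split by position, so this pattern cannot be called particular to the lost ones. H3K27ac was in all 6 lists at 319 lost regions and in none at 135, and it was in more KO than WT lists at 78 and in more WT lists at 28. Of all other regions, 21.1% had H3K27ac in all 6 lists and 59.2% in none, 8.22% had it in more KO lists and 8.93% in more WT lists, against 13.6% and 4.90% of the lost regions. Of the 319, 315 also had H3K4me1 in all 6 lists.

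H3K4me3 showed the same order of the libraries. It was called at 15.4%, 16.3% and 16.8% of the lost regions in WT and at 17.1%, 19.9% and 18.5% in KO, a difference of 2.39 percentage points with no overlap of the groups (exact permutation p = 0.1, adjusted p = 0.20). At all other regions it was 11.8% ± 0.51 in WT and 11.7% ± 0.53 in KO, and the difference against them was 2.48 percentage points (exact permutation p = 0.1, adjusted p = 0.20). At 40 lost regions H3K4me3 was in more KO than WT lists and at 10 in more WT lists, while 79 had it in all 6 lists and 440 in none. These were 6.99%, 1.75% and 13.8% of the lost regions for more KO lists, more WT lists and all 6 lists, against 2.07%, 2.21% and 9.63% of all other regions, and 25.3% of regions in all 6 H3K27me3 lists had H3K4me3 in all 6. The latter regions were wider, and in bases H3K4me3 covered 2.94% of the lost sequence in WT and 2.38% of theirs. With equal numbers of top-ranked calls per list the difference was 1.28 percentage points and the groups overlapped (exact permutation p = 0.2), and with at least 0.5 of a region's bases covered it was 0.058 (exact permutation p = 1). Where all 6 libraries had a peak, the median fold enrichment over input was 10.8, 10.0 and 11.5 in WT and 10.4, 11.2 and 11.1 in KO, and the groups overlapped. Over 256 intergenic lost regions H3K4me3 was called at 1.56%, 1.56% and 2.73% in WT and at 3.91%, 5.08% and 3.91% in KO, with no overlap, and over the 120 at promoters at 51.4% ± 1.27 and 53.6% ± 1.73, with overlap. Here too, other H3K27me3 regions were not split by position for comparison.

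Over all lost regions the genotypes overlapped for H3K4me1 and H3K9me3. H3K4me1 was called at 78.5%, 77.1% and 78.3% in WT and at 77.4%, 76.6% and 78.1% in KO (difference -0.58 percentage points, exact permutation p = 0.5, adjusted p = 0.57). Against all other regions, where it went from 46.6% ± 0.020 to 44.8% ± 0.42, the difference was 1.20 percentage points (exact permutation p = 0.3, adjusted p = 0.48). Without the 6 lost regions within 1 Mb of a segment that was left out, the difference in H3K4me1 turned to 0.29 percentage points. H3K9me3 was called at 10.8%, 6.47% and 7.87% in WT and at 8.57%, 6.47% and 6.99% in KO (difference -1.05 percentage points, exact permutation p = 0.7, adjusted p = 0.70). Against all other regions the H3K9me3 difference was 1.20 percentage points (exact permutation p = 0.4, adjusted p = 0.53), and WT replicate 1 stood highest at the lost regions. At the 120 promoters both marks were lower in each KO library. H3K4me1 was called at 90.8%, 90.8% and 91.7% of these in WT and 87.5%, 87.5% and 89.2% in KO (difference -3.06 percentage points, exact permutation p = 0.1). H3K9me3 was called at 11.7%, 6.67% and 7.50% in WT and 5.83%, 4.17% and 5.00% in KO (difference -3.61, exact permutation p = 0.1). These H3K9me3 shares stand for few of the 120 promoters, and the lowest WT share (6.67%) was close to the highest KO share (5.83%). The tests by position were not adjusted. In gene bodies and intergenic sequence the groups overlapped for both marks. The mean share of H3K9me3 was also lower in KO outside the lost regions. It went from 11.0% ± 0.74 to 8.71% ± 1.55 at all other regions and from 17.1% ± 1.44 to 13.7% ± 2.82 at those called in all 6 lists. At gained regions it went from 9.89% ± 0.57 to 6.92% ± 0.86. Other regions were not split by position, so the fall at promoters cannot be called particular to the lost ones.

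**Figure D3:**
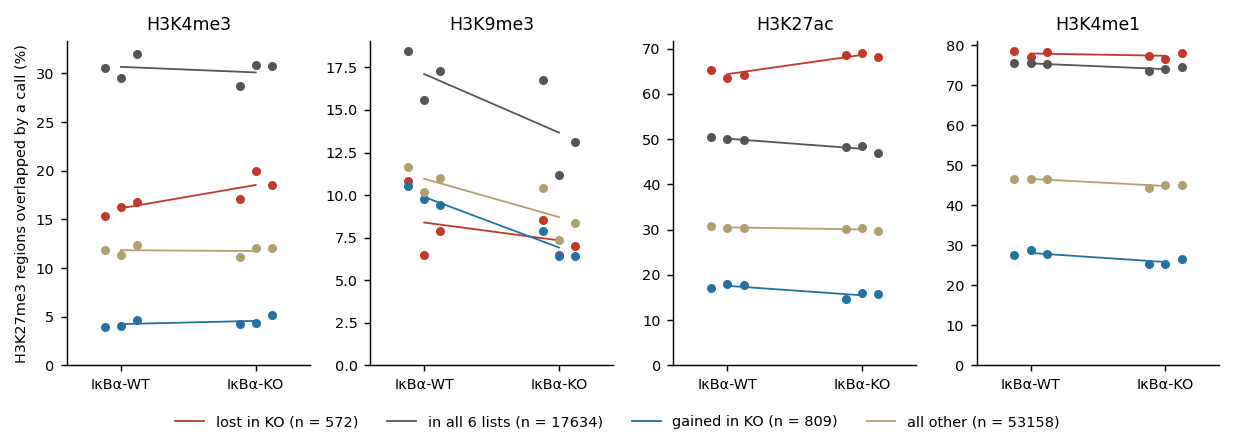
Share of merged H3K27me3 regions overlapped by at least 1 bp by a call of each of 4 other marks, with a point for each library and lines between the group means, for lost, gained, lasting and all other regions. At the lost regions the 3 KO libraries lie above the 3 WT libraries for H3K27ac (68.2% to 69.1% against 63.6% to 65.4%) and H3K4me3 (17.1% to 19.9% against 15.4% to 16.8%).

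The gained regions moved otherwise than the lost ones for H3K27ac, but a lower share in KO was not particular to them. At regions in all 6 H3K27me3 lists H3K27ac was called at 50.1% ± 0.35 in WT and 47.9% ± 0.91 in KO. In bases, however, it covered 21.8% ± 0.50 and 23.3% ± 0.62 of those regions. At the gained regions it was called at 17.6% ± 0.38 in WT and 15.5% ± 0.68 in KO. The KO minus WT difference at lost regions exceeded that at gained regions by 6.36 percentage points (exact permutation p = 0.1, the smallest possible). For H3K4me1 it exceeded it by 1.68 percentage points with no overlap of the groups (exact permutation p = 0.1), for H3K4me3 by 2.06 (exact permutation p = 0.1) and for H3K9me3 by 1.92 (exact permutation p = 0.2). These 4 tests were not adjusted.

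Regions of another mark that were called in all libraries of one genotype and none of the other were rare at lost regions. H3K4me3 regions called in 3 of 3 KO and 0 of 3 WT lists overlapped 6 lost regions (1.05%), against a background of 0.255% of all merged H3K27me3 regions, and the reverse kind overlapped none (background 0.318%). H3K27ac regions held by the KO alone overlapped 5 (0.87%, background 0.592%) and those held by the WT alone 2 (0.35%, background 1.10%). For H3K4me1 these counts were 4 (0.70%, background 0.417%) and 6 (1.05%, background 0.910%), and for H3K9me3 3 (0.52%, background 0.0614%) and 4 (0.70%, background 0.581%). All were few. Those of H3K4me1, of H3K27ac held by the KO alone and of H3K9me3 held by the WT alone were near the background. Of the 5 lost regions with KO-only H3K27ac, 2 lay under a single H3K27ac region. The regions described below are thus single loci and not a trait of the lost regions.

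Among the 6 with a KO-only H3K4me3 region was Bmp4, which encodes a ligand of the bone morphogenetic protein pathway. The lost H3K27me3 region, as merged (chr14:46387601-46391400, 3800 bp), spanned the 5′ end of the gene, but only the call of WT replicate 3 reached it. The calls of WT replicates 1 and 2 began 0.469 kb inside the gene, and 1400 bp were called in all 3 WT libraries. H3K4me3 calls covered 0, 369 and 264 bp of it in WT replicates 1 to 3 and 476, 1058 and 1266 bp in KO replicates 1 to 3, so every KO library was above every WT library. The KO-only peak region (chr14:46389791-46390525) lay near the 5′ end, around the Bmp4 intron window printed above, while the WT peaks lay further inside the gene. H3K27ac covered all 3800 bp in each of the 6 libraries. H3K4me1 covered 3800, 3000 and 3400 bp in WT and 3000, 400 and 200 bp in KO, so KO replicates 2 and 3 stood far below the others. In the 1-Mb window that holds Bmp4 the log2 ratio of KO over WT input of the H3K4me1 libraries was -0.23, and at the region itself these inputs held 17.1 reads per kb in WT and 14.3 in KO. The part of the input in these differences was not tested.

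The other 5 with a KO-only H3K4me3 region were Pfkfb3, Lipe, Tle3, Rxra and Glis2. At Pfkfb3, a regulator of glycolysis, no WT library had H3K4me3 in the lost region (chr2:11532001-11542800), and KO replicates 1 to 3 had 257, 653 and 419 bp of it, inside an intron that held 11 CpG in the window shown. At Lipe, the hormone-sensitive lipase gene, it covered 0 bp in WT and 467, 520 and 879 bp in KO (chr7:25396601-25399000), with KO fold enrichments of 8.29, 7.12 and 7.36 over input. At the promoter of Tle3, a Groucho-type corepressor, H3K4me3 as a whole covered 2801 to 3158 bp in WT and 3084 to 3862 bp in KO (chr9:61368201-61376600), and these ranges overlapped. At the nuclear receptor gene Rxra and at the zinc-finger gene Glis2, which the naming rule left out and is given for completeness, the KO-only peak region reached past the edge of the lost region, and at Rxra the overlap came from KO replicate 1 alone, with 175 bp.

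KO libraries alone had H3K27ac in a pair of lost regions upstream of Ufm1, which encodes a ubiquitin-like modifier. The regions were neighbours, chr3:53865401-53869200 and chr3:53869601-53873400, the nearer one at 1570 bp from the 5′ end. Their H3K27me3 ratios were 2.04, 2.00 and 2.02 in the nearer region and 2.85, 1.97 and 2.50 in the farther one in the WT libraries. H3K27ac covered 0 bp of the farther region in each WT library, against 3800, 3000 and 3000 bp in KO replicates 1 to 3. In the nearer region it covered 0 bp in WT and 2200, 2200 and 2000 bp in KO. H3K4me1 was called in all 6 libraries, over 3200 to 3800 bp of the farther region in WT and 3600 to 3800 bp in KO, and over 2400, 1800 and 2000 bp of the nearer one in WT and 3800 bp in each KO library. H3K4me3 was called in none. A single KO-only H3K27ac region (chr3:53867001-53874400) spanned both, so they count as 1 locus. All 3 WT libraries had H3K27ac farther upstream, over 20 kb from the 5′ end, and at the 5′ end itself. The KO libraries had it farther upstream as well. At the 5′ end KO replicates 1 and 3 had a call, whereas KO replicate 2 had none.

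The other KO-only H3K27ac regions overlapped the lost regions in the kinase gene Dstyk (chr1:132430201-132437800; 0 bp in WT and 2600, 6800 and 4200 bp in KO), in Megf11 (chr9:64668201-64671600; 0 bp in WT and 600, 2200 and 2000 bp in KO) and at the promoter of Sccpdh (chr1:179665201-179672600). At Sccpdh H3K27ac was not new, since calls covered 400, 2800 and 4200 bp in WT and 4400, 5000 and 4600 bp in KO. WT-only H3K27ac regions lay at Itgb8, an integrin gene, with 2800, 3200 and 4600 bp in WT and 0 bp in KO, and near Spp1 (chr5:104383801-104389400), with 400, 2200 and 400 bp in WT and 0 bp in KO. At Itgb8 (chr12:119236201-119242000) H3K4me1 and H3K9me3 calls were likewise in all WT and no KO libraries, and H3K4me3 covered 928, 1165 and 1128 bp in WT and 235, 706 and 500 bp in KO. That region lies in the sequence of lower KO input described above, with which its changes cannot be told apart.

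For H3K4me1, WT-only regions overlapped 3 of the lost regions beside the chromosome 12 segment, the one at Itgb8, the promoter of Bcl7a, a chromatin remodelling subunit gene (chr5:123334601-123340400; 1400, 1200 and 1200 bp in WT and 0 bp in KO), and Fam186a (chr15:99917601-99924200; 3600, 2000 and 5200 bp in WT and 200, 800 and 600 bp in KO). Thus 4 of the 6 were in the sequence of lower KO input. KO-only H3K4me1 regions overlapped an intron of Enox1 (chr14:77280201-77283000; 0 bp in WT and 1600, 1600 and 1400 bp in KO) and intergenic lost regions near Creb1, Klf5 and Far1, of which that near Creb1 was reached by KO replicate 3 alone, with 800 bp. For H3K9me3, KO-only regions overlapped lost regions at the coding exon of Irf2bpl (chr12:86881801-86884000), near Pik3r1 on chromosome 13 and near Jcad on chromosome 18. WT-only H3K9me3 regions overlapped those at the promoter of Ghrh, which encodes growth hormone releasing hormone, in an intron of Pknox2, and at intergenic sites near Cysltr2 and CK137956.

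At the lost regions of the listed genes Gnas and Cbx6, other marks were called in both genotypes. The lost region at Gnas (chr2:174283801-174287200, 3400 bp) had H3K27me3 ratios of 1.45, 1.43 and 1.73 in WT. H3K4me3 covered 2652, 2377 and 2628 bp of it in WT and 3011, 2906 and 3400 bp in KO, so all KO libraries were above all WT libraries, and H3K27ac covered 3200 to 3400 bp in all 6. Upstream of Cbx6 (chr15:79836001-79841800, 5800 bp), which is also the promoter of Npcd, the H3K27me3 ratios were 2.38, 1.47 and 1.65. H3K27ac covered 3600, 2200 and 3000 bp there in WT and 2400, 2600 and 3400 bp in KO, without separating the genotypes. In Gata3 (chr2:9857601-9861800), the ratios were 1.96, 1.81 and 2.38. In the lost region of Zdbf2, H3K27ac was called in KO replicate 2 alone, over 3400 bp, and H3K4me3 in no library. H3K4me1 covered 0, 2200 and 2600 bp there in WT and 4600, 4600 and 2400 bp in KO. H3K9me3 was called there in all 6 libraries.

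Where H3K27ac was called in all libraries, its read counts were compared with edgeR's quasi-likelihood test over merged H3K27ac regions of like length. Of 4054 regions tested, 145 overlapped a lost H3K27me3 region and held 161 of them. These H3K27ac regions were large, with a median width of 73600 bp (29600 bp over all tested), so a lost region filled only a part of each. At an adjusted p under 0.05, 80 of the 145 (55.2%) were higher in KO and 17 (11.7%) lower, against a background of 26.4% higher and 26.5% lower. The changes were small: the median log2 fold change was 0.10 over the 145 and -0.00 over all tested, and all 97 called were under 1.5-fold. The split moved in other fits, together with that over all regions. When all 24039 H3K27ac regions called in 6 lists entered, with covered length as an offset, 39 of 343 at lost regions were higher and 36 lower, against 721 higher and 4454 lower over all, at medians of -0.03 and -0.13. With no normalization 62 of 145 were higher and 27 lower, against 744 and 1479 of 4054, at medians of 0.05 and -0.05. In each of these 3 fits the median at lost regions was above that over all regions. On autosomes outside the segments, 82 of 145 were higher and 15 lower, against 1024 and 1015 of 3936. The background was not matched for width.

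Among the 145, the largest H3K27ac rises were in the region over Nrp2, a semaphorin co-receptor gene (chr1:62700001-62833600), with 731, 726 and 708 TMM-normalized CPM in WT and 1042, 1028 and 1037 in KO (log2 fold change 0.52 ± 0.017 SE, edgeR adjusted p = 3.7e-16). Next came the region over the kinase gene Sik1 (chr17:31801801-31881800), from a mean of 495 to 694 CPM (0.49 ± 0.023, edgeR adjusted p = 1.8e-13). The largest falls were over Gata3 (chr2:9813801-9879400), with 306, 329 and 324 CPM in WT and 261, 240 and 279 in KO (-0.30 ± 0.043, edgeR adjusted p = 5.6e-06), and over Erv3 (chr2:131819601-131896400; -0.29 ± 0.028, edgeR adjusted p = 2.9e-08). At Gata3 the groups did not overlap, and the lost H3K27me3 region lay within this H3K27ac region. With length as an offset these 4 kept their direction, at 0.36, 0.40, -0.26 and -0.16.

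H3K4me1 reads were compared in the same way. Of 10959 regions tested, 236 overlapped a lost region. Their median width was 39300 bp, against 15000 bp over all tested, and the background was not matched for width. Of the 236, 78 (33.1%) were higher in KO and 47 (19.9%) lower, against a background of 23.4% and 20.0%, with medians of 0.03 and -0.00. On autosomes outside the segments, 83 of 236 were higher and 41 lower, against 2341 and 1993 of 10533. In the fit of all regions with length as an offset it was 86 higher and 4 lower of 426, against 3328 and 344 of 44625, at medians of 0.08 and 0.05. With no normalization it was 48 higher and 80 lower, against 1776 and 3584, at medians of -0.02 and -0.05, so the sign moved with all regions while the median at lost regions stayed slightly above theirs. All 125 called were under 1.5-fold. Among the 236, the largest rises were at Pebp4 (chr14:70036801-70049800), from 32.2, 34.3 and 32.1 CPM in WT to 48.1, 46.6 and 48.0 in KO (0.53 ± 0.051, edgeR adjusted p = 1.2e-10), and over the zinc transporter gene Slc39a14 (chr14:70302001-70357000; 0.44 ± 0.024, edgeR adjusted p = 3.9e-17). The largest falls were over Yars and Sync (chr4:129190601-129300000; -0.37 ± 0.016, edgeR adjusted p = 1.9e-20) and in Dach1 (chr14:98021201-98024200; -0.29 ± 0.095, edgeR adjusted p = 0.014). The fall in Dach1 shrank to -0.13 with length as an offset (adjusted p = 0.59).

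**Figure D4:**
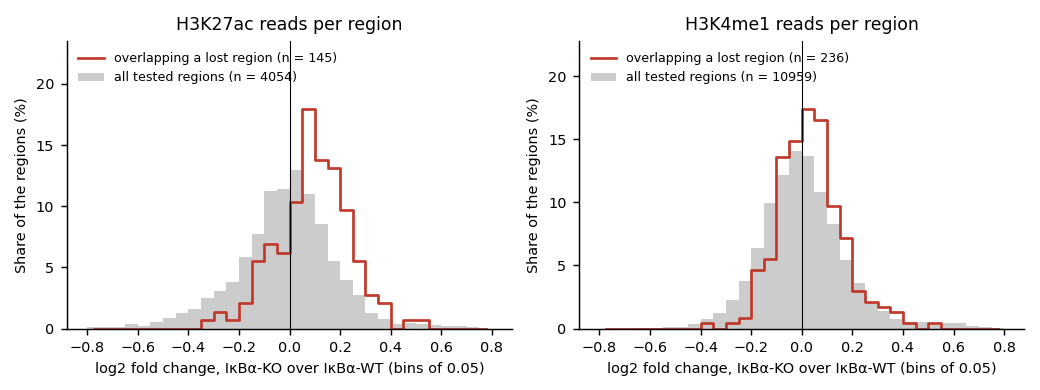
Distribution of edgeR log2 fold changes (KO over WT) of H3K27ac (left) and H3K4me1 (right) reads per merged region, as a share of regions in bins of 0.05, for all tested regions (grey) and those that overlap a lost H3K27me3 region (red line). The H3K27ac regions at lost regions have a median of 0.10 against -0.00 over all tested, and the H3K4me1 regions 0.03 against -0.00.

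For H3K9me3, 3156 regions were tested, of which 6.91% were higher and 7.38% lower in KO, but only 1 overlapped a lost region, and its log2 fold change of -0.01 was not called by edgeR (0 at an unadjusted p under 0.05) or by DESeq2.

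As a check of the cells, H3K4me3 calls lay at the promoters of 6 of 10 embryonic stem cell markers in all 6 libraries, among them Pou5f1, Sox2 and Zfp42, and H3K27ac calls at 9 of 10. H3K27me3 calls lay in all 6 libraries at 4 of 5 primitive endoderm, 3 of 4 trophectoderm, 3 of 4 fibroblast and 3 of 3 neural markers, and at 1 of 10 stem cell markers (Esrrb). H3K27ac calls were also in all 6 libraries at 3 of 3 neural, 2 of 4 trophectoderm, 2 of 5 primitive endoderm and 1 of 4 fibroblast markers, and H3K4me3 calls at 1 of 3, 2 of 4, 1 of 5 and 1 of 4. At the promoter of Nfkbia itself, H3K4me3 covered 478, 730 and 703 bp in WT and 0, 360 and 585 bp in KO, and no H3K27me3 was called. ChIP reads in H3K27me3 calls ranged from 8910890 to 10938375 per library, over 214 to 278 Mb of sequence. WT replicate 1 held the least sequence (214 Mb) and the shortest calls (median 3400 bp).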

How the data were processed

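The authors trimmed reads with Trim Galore 0.6.6, used Bowtie2 2.4.4 and GRCm38 to align all marks but H3K27ac and H3K9me3, removed multimapped reads, discarded the Drosophila spike-in reads of H3K27me3, and called regions against 1 input per genotype, per the study's methods and the submitters' processing notes. The aligner of H3K27ac and H3K9me3 is not given in the sources used here. The deposited epic2 lists give a ChIP count, an input count, a p-value, an FDR, a log2 fold change and a score per region, and the deposited MACS2 lists for H3K4me3 give a score, a fold enrichment (ratio), a −log10 p-value and a −log10 q-value and no counts. All lists were called per library at an FDR under 0.05. Total library depth did not enter, and the counts cover called sequence only.

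Members and gene lists were chosen with earlier results of these data known. Coordinates are 1-based on GRCm38 with GENCODE M21. Shares of regions were compared between 3 WT and 3 KO libraries by exact permutation (20 assignments, two-sided). Read counts were compared with edgeR 4.0.16 (TMM, quasi-likelihood, Benjamini-Hochberg) in R 4.3.3, on regions called in all 6 lists whose shortest covered length was at least 0.8 of the longest, with DESeq2 1.42.0 as an alternative. The procedure was tested on simulated data. CPM values use TMM-normalized totals of the tested regions, and standard errors are the log2 fold change over the root of the F statistic. Where a genotype has no count because nothing was called, no value exists, so the H3K27me3 lists give no KO reads at lost regions.

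Named regions were the 8 widest, the 8 with the highest WT ratio (at least 100 ChIP reads), those at promoters of listed genes, those overlapping regions of another mark held by 1 genotype (at most 5 per mark and direction, widest first), and the 2 largest rises and falls per mark with counts. Alternatives changed the FDR, list length, overlap measure, comparison set, normalization, length treatment, replicate block and libraries. Python 3.11.15, numpy 2.4.6, pandas 2.3.3, SciPy 1.17.1 and matplotlib 3.10.9 were used. The clones are the replicates, so p-values measure the spread between clones.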

Additional observations from a re-analysis of the deposited data

How the results depend on the processing

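The number of lost regions depended on the definition. Counted as runs of bases called in 3 WT and 0 KO lists without merging there were 3483, and leaving out 1 library gave 777 to 1154 (1154, 1028 and 1103 without WT replicates 1, 2 and 3, and 1023 without KO replicate 2), since the rule then asked for fewer calls. Leave-one-out differences in percentage points ran from 1.69 to 3.09 for H3K4me3 (1.94 to 2.87 against other regions), -2.01 to 0.17 for H3K9me3 (0.63 to 2.07), 3.88 to 4.75 for H3K27ac (4.38 to 5.08) and -1.02 to -0.17 for H3K4me1 (0.77 to 1.68). For H3K9me3 the difference at lost regions reversed to 0.466 when at least 0.5 of a region's bases had to be covered, to 0.874 with equal numbers of top-ranked calls, and to 0.175 without WT replicate 1. For H3K4me1 it reversed to 0.294 without the regions within 1 Mb of a segment and to 0.0737 without promoters, both tried after seeing the data, as were the fits with no normalization and on autosomes outside the segments. The cause was not tested. The H3K27ac and H3K4me3 share differences kept their direction under the alternatives run, from 3.88 to 8.22 and from 0.0583 (at least 0.5 of the bases covered) to 3.09, and for H3K4me3 the groups overlapped there and with top-ranked calls (1.28). Called regions at lost regions without 1 library numbered 89 to 96 for H3K27ac, 112 to 115 for H3K4me1 and 0 for H3K9me3.

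Replicate numbers did not pair the H3K9me3, H3K27ac or H3K4me1 libraries (correlations of deviations -0.083 to 0.031). The H3K27me3 and H3K4me3 libraries were not checked for pairing. With a replicate block edgeR called 98 regions for H3K27ac, 124 for H3K4me1 and 0 for H3K9me3 at lost regions. Sign flips of the replicate pairs cannot change a difference of means. For H3K27ac (4.25 percentage points) they gave an exact sign-flip p = 0.25, the smallest that 3 pairs allow.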
